A study of Mus musculus with 44 samples.

Results

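The 10 genes described here make the constant parts of antibodies, or serve the cells that make and secrete antibodies. They are the heavy chain constant genes Ighm, Ighg1, Ighg2b, Ighg2c, Ighg3 and Igha, the kappa light chain constant gene Igkc, the joining chain gene Jchain, and the B-lineage genes Cd79a and Mzb1. They were taken by name from a list and not ranked by their values, but earlier results of these data were known when the list was chosen. All 10 were found by symbol among the 43411 genes of the deposited table. Their levels were followed in the back skin of 44 wild-type (WT) C57Bl/6 female mice that were 8 weeks old at the start. Every treated mouse received daily subcutaneous bleomycin into the back skin, a drug treatment that induces skin fibrosis. The sample labels give 100 µL at 1 U/mL, and a legend in the study's supplement gives a lower concentration, so the dose is uncertain. The groups were 10 mice given saline, 10 given bleomycin for 2 weeks and 10 given it for 4 weeks, with 6 and 8 mice that stayed untreated for 6 and 10 weeks after 4 weeks of bleomycin. RNA came from a piece of whole skin, with all of its cell types together, and each library was 1 mouse. The labels do not give the time at which saline mice were sampled, so time since the start and recovery cannot be told apart. In bulk skin, fewer cells of a type and less RNA per cell cannot be told apart either.

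An antibody is made of paired heavy and light chains. A B cell first makes IgM from Ighm, and class switching later joins its variable region to another constant gene, giving the IgG subclasses or IgA. A plasma cell is a B-lineage cell that secretes antibody in bulk, and IgA is the main antibody of mucosal surfaces. J chain links the units of secreted IgM and IgA and is not needed for IgG. Cd79a is the signalling partner of the B cell receptor, and Mzb1 is a helper protein of the endoplasmic reticulum in antibody-secreting cells.

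The 6 heavy chain genes lie on the minus strand of chromosome 12 in GRCm38, in the order Ighm (chr12:113418558-113422730), Ighg3 (chr12:113356224-113361232), Ighg1 (chr12:113325240-113330523), Ighg2b (chr12:113302965-113307933), Ighg2c (chr12:113285325-113288932) and Igha (chr12:113254830-113260236) along the direction of transcription. Igkc lies at chr6:70726435-70726966 on the plus strand, inside an intron of the long non-coding gene Gm30211 on the same strand. Jchain is at chr5:88519809-88527891 on the minus strand and Cd79a at chr7:24897381-24902197 on the plus strand. The IgG genes are related to each other, and each has a hinge exon, which codes for the flexible stretch between the arms and the stem of the antibody. The hinge exons are shown because they differ between the 4 subclasses compared here in length and in cysteines. They are read 5′ to 3′ on the coding strand from GRCm38, with in-frame cysteine codons, which form the bonds between the heavy chains, in capitals:
Ighg1 hinge, chr12:113329844-113329882: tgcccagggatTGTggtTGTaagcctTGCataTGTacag
Ighg2b hinge, chr12:113307261-113307326: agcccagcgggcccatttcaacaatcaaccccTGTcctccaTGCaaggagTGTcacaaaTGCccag
Ighg2c hinge, chr12:113288263-113288325: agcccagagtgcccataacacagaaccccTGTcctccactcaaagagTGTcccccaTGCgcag
Ighg3 hinge, chr12:113360529-113360576: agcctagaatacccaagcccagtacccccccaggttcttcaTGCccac
The exons span 39, 66, 63 and 48 bases, and hold 4, 4, 3 and 1 cysteine codons that lie whole within the exon. Of all 50-base windows of the gene models, 0.393% of Ighg1, 4.15% of Ighg2b, 5.49% of Ighg2c and 1.58% of Ighg3 occurred in another annotated gene, so that a few of their reads could be placed on either gene. The same share was 0% for Ighm, Igha, Igkc and Jchain, 8.31% for Cd79a, with the pseudogene Gm32220, and 53.5% for Mzb1, with a read-through transcript, which leaves the Mzb1 values uncertain.

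The last 54 coding bases of the secreted forms of Ighm and Igha are shown because this tail carries the cysteine to which J chain is bound, the feature that sets the IgM and IgA genes apart from the IgG genes. The cysteine codon is in capitals:
Ighm tail, chr12:113420870-113420923: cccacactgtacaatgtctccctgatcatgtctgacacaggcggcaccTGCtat
Igha tail, chr12:113258771-113258824: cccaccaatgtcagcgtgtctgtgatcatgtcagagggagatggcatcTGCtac
The tails were identical at 35 of 54 bases (64.8%). The last 54 coding bases of the 4 IgG genes held 0 cysteine codons and matched the Ighm tail at 16 to 23 of 54 bases (29.6% to 42.6%).

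Each library held between 8509094 and 15285577 reads assigned to genes (median 11310008.5), and 1 read was worth 0.7298 to 1.301 normalized counts. Over all mice, Ighm had 42959 reads, Igha 11002, Igkc 5134, Jchain 3107, Ighg1 1420 and Ighg2b 424, whereas Mzb1 had 219, Cd79a 199, Ighg2c 123 and Ighg3 6. With a mean normalized count above 3 required for a test, 8 of the 10 genes were tested, and Ighg2c (mean 2.68) and Ighg3 (mean 0.129) were only described. The libraries matched their label as skin: the 4 keratinocyte markers Krt5, Krt14, Krt1 and Krt10 summed to between 104919 and 230933 normalized counts in every mouse, and the 4 fibroblast markers to between 33316 and 163788. Mouse 2 of the 2-week group and saline mouse 1 stood farthest from their groups, with median correlations of 0.938 and 0.942 with the other mice of the group, against 0.947 to 0.985 in the remaining mice. Without these 2 mice, every call on the 10 genes was kept except that on Cd79a at 2 weeks (adjusted p = 0.0917, limma).

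In saline skin, Ighm was by far the most abundant of the 10 genes. Per kilobase of exon, its median was 677 normalized counts, followed by Igkc at 28.6, Ighg1 at 16.2, Igha at 15.6, Jchain at 2.70, Mzb1 at 2.004, Cd79a at 1.78 and Ighg2c at 0.431. The medians of Ighg2b and Ighg3 were 0. Per kilobase, Igkc exceeded Ighg1 in 9 of 10 saline mice and Igha in 9 of 10, while Igha exceeded Ighg1 in 5 of 10, so that the order of Ighg1 and Igha was not the same in all of them. After 6 weeks of recovery the median levels per kilobase were 531 for Ighm, 420.2 for Igkc, 185 for Igha, 55.6 for Jchain and 22.3 for Ighg1. In both recovery groups, the levels per kilobase of Igkc and of Igha exceeded that of Ighg1 in every mouse.

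**Figure D1:**
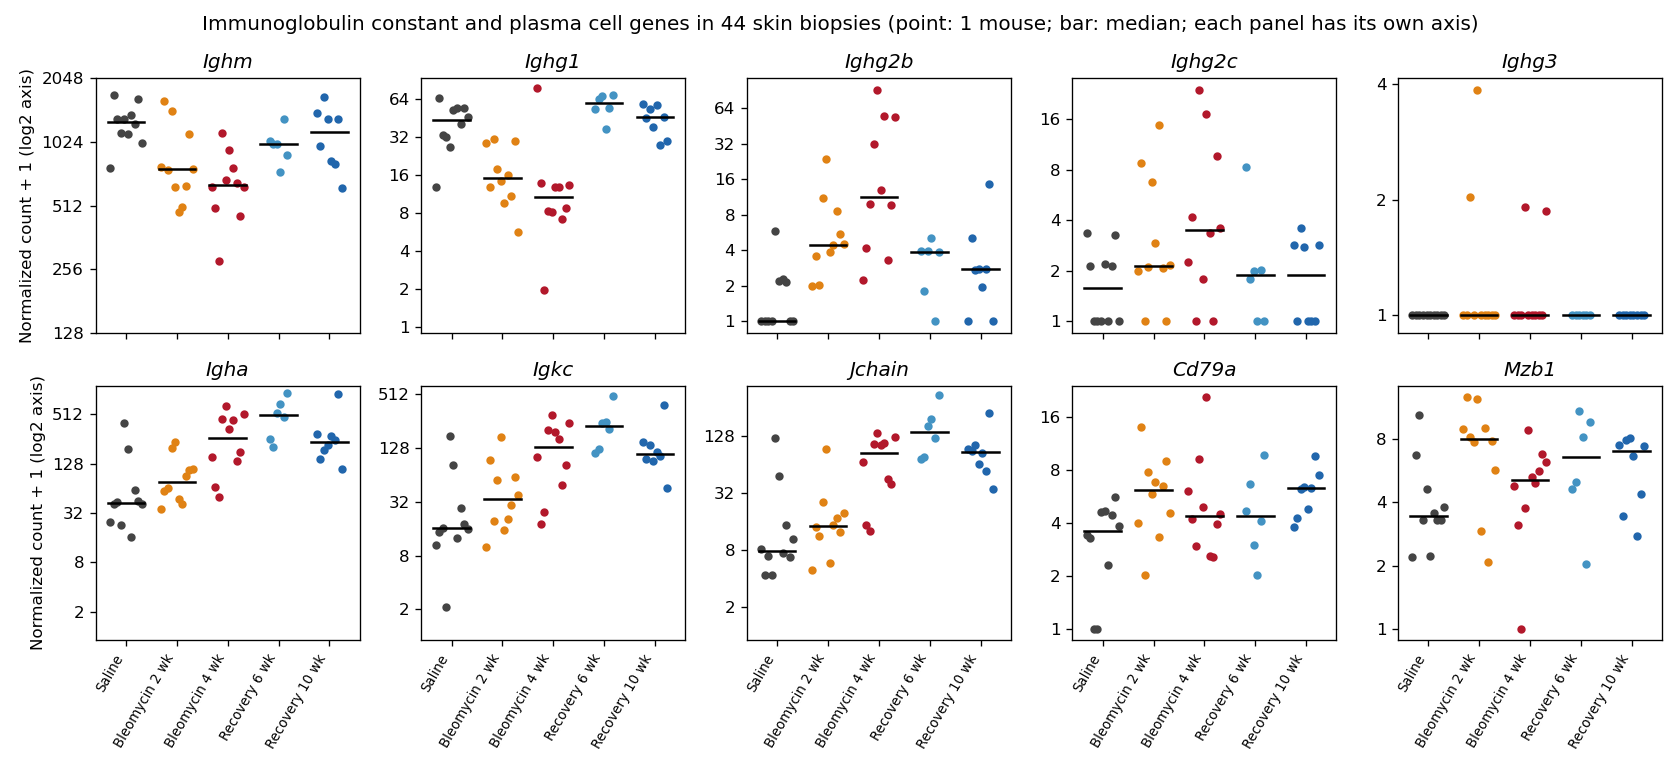
Each panel plots the normalized count + 1 of 1 gene, on a log2 axis with its own range, for 44 mice in 5 groups, with a point for each mouse and a bar at the group median. Igha, Igkc and Jchain climb from saline to 6 weeks of recovery with wide overlap, Ighm and Ighg1 dip in the bleomycin groups, and the median of Igkc is 15.2 normalized counts in saline mice and 224 at 6 weeks of recovery.

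The comparisons with saline asked which antibody genes changed while bleomycin was given and whether they had returned after it was stopped. IgA and kappa light chain RNA, with the J chain, did not differ detectably from saline at 2 weeks, were several times higher at 4 weeks, and were still higher after 6 and 10 weeks without bleomycin. Ighm and Ighg1 were lower at 2 and 4 weeks of bleomycin and were not detectably different from saline in recovery. Ighg2b was higher at 2 and 4 weeks. A gene was called changed when its fold change passed 1.5 in either direction with an adjusted p below 0.05, by limma with Benjamini-Hochberg adjustment over the 17037 genes tested, and folds come from log2(normalized count + 1), so changes of low genes are understated. The 4 comparisons share the 10 saline mice.

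By this rule, 4 of the 8 tested genes were called at 2 weeks, with Ighg2b and Cd79a higher and Ighm and Ighg1 lower, while 9.3% of all genes were called higher and 7.43% lower. At 4 weeks, 6 were called, with Ighg2b, Igha, Igkc and Jchain higher and Ighm and Ighg1 lower, against 10.5% and 7.37% of all genes. After 6 weeks of recovery, 3 were called, all higher (Igha, Igkc and Jchain), against 3.33% of all genes called higher and 1.71% lower. After 10 weeks of recovery the called genes were again these 3, all higher, against 2.05% and 0.998%. With edgeR on the recovered reads, 2922, 3136, 893 and 570 genes in all were called in these comparisons, and with limma 2851, 3053, 859 and 519.

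**Figure D2:**
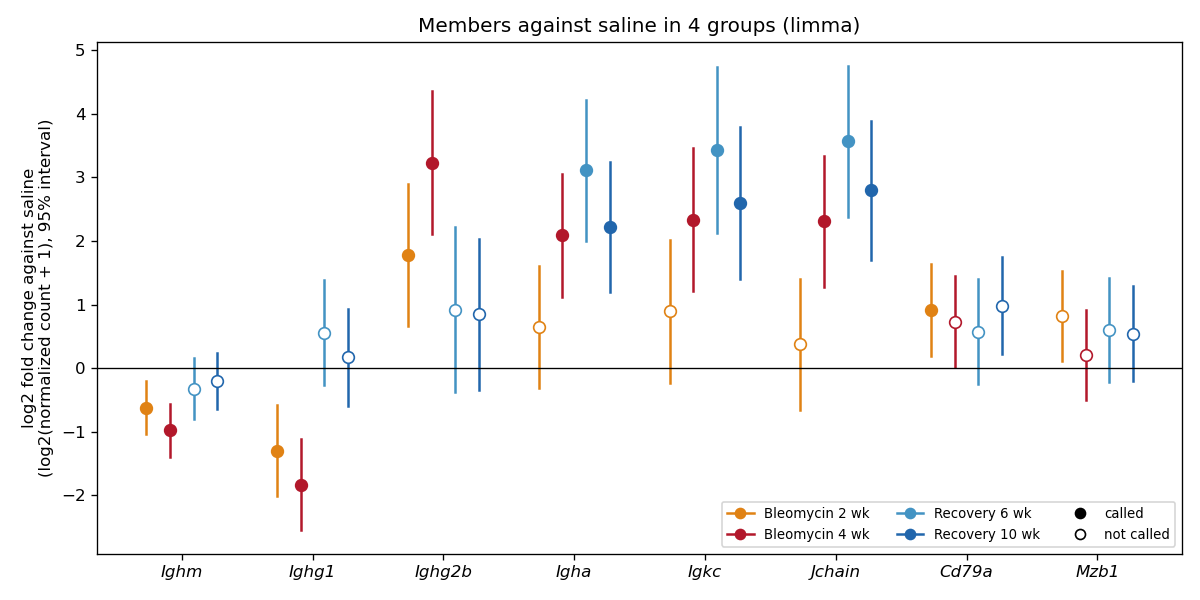
Log2 fold changes against saline (y axis, from log2(normalized count + 1)) of the 8 tested genes (x axis) in 4 groups, with 95% intervals from limma and filled points for called changes. Igha, Igkc and Jchain have filled points at 4 weeks of bleomycin and in both recovery groups, and Ighm and Ighg1 have filled points below 0 in the bleomycin groups only.

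Igha, the constant region of IgA, was higher from 4 weeks of bleomycin on. Its normalized counts in saline mice had a lowest value of 15.5, a median of 41.5 and a highest value of 397. At 2 weeks of bleomycin they were 34.6, 76.02 and 232 in the same order, and at 4 weeks 48.9, 258 and 646. All 10 mice at 4 weeks lay above the saline median and 4 of them above every saline mouse, although the groups overlapped. After 6 weeks of recovery the values were 200.4, 494 and 932, and after 10 weeks 110.3, 232 and 891. In recovery, 4 of 6 and 1 of 8 mice exceeded every saline mouse, and all 14 exceeded the saline median. Against saline, Igha was 4.26-fold higher (log2 fold change 2.09 ± 0.48 SE, adjusted p = 0.000503) at 4 weeks of bleomycin. It was 8.63-fold higher (log2 fold change 3.11 ± 0.55 SE, adjusted p = 0.000204) at 6 weeks and 4.68-fold higher (log2 fold change 2.23 ± 0.51 SE, adjusted p = 0.00542) at 10 weeks of recovery. The difference at 2 weeks was not called (log2 fold change 0.65, 95% interval -0.32 to 1.61, adjusted p = 0.306).

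Igkc, the constant region shared by kappa light chains, was higher in the same groups as Igha. Saline mice ranged from 1.14 to 174 normalized counts with a median of 15.2, and mice at 2 weeks of bleomycin from 8.91 to 171 with a median of 32.9. At 4 weeks the lowest, median and highest values were 17.1, 131 and 300.4. The 10 mice at 4 weeks were all above the saline median, and 4 were above every saline mouse. After 6 weeks of recovery the values were 112, 224 and 487, and after 10 weeks 44.1, 109 and 386. Of the saline mice, 9 of 10 were below every mouse at 6 weeks of recovery and 8 of 10 below every mouse at 10 weeks. Igkc was 5.05-fold higher (log2 fold change 2.34 ± 0.56 SE, adjusted p = 0.000832) at 4 weeks of bleomycin. It was 10.8-fold higher (log2 fold change 3.43 ± 0.64 SE, adjusted p = 0.000451) at 6 weeks and 6.07-fold higher (log2 fold change 2.60 ± 0.59 SE, adjusted p = 0.00532) at 10 weeks of recovery. At 2 weeks it was not called (log2 fold change 0.89, 95% interval -0.23 to 2.02, adjusted p = 0.2201).

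Jchain, which joins the units of secreted IgM and IgA, had the largest fold of the 8 genes in both recovery groups. In saline mice it had a median of 5.5 reads, and 2 of the 10 mice had at most 3. Its normalized counts were 3.42 to 122 (median 6.797) in saline mice, 3.96 to 91.8 (median 13.4) at 2 weeks and 11.7 to 136 (median 84.3) at 4 weeks of bleomycin. They were 71.5 to 347 (median 140.0) after 6 weeks and 34.02 to 222 (median 85.9) after 10 weeks of recovery. At 6 weeks of recovery, 3 of 6 mice lay above every saline mouse and 9 of 10 saline mice lay below every recovered mouse. Jchain was 4.96-fold higher (log2 fold change 2.31 ± 0.51 SE, adjusted p = 0.000337) at 4 weeks of bleomycin. It was 11.8-fold higher (log2 fold change 3.57 ± 0.59 SE, adjusted p = 7.36e-05) at 6 weeks and 6.94-fold higher (log2 fold change 2.80 ± 0.54 SE, adjusted p = 0.00108) at 10 weeks of recovery. At 2 weeks it was not called (log2 fold change 0.38, 95% interval -0.66 to 1.41, adjusted p = 0.606), and edgeR and DESeq2 put that difference below 0 (log2 -0.05 and -0.10).

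In recovery, the overlap with saline came from a pair of saline mice. Saline mouse 5 had 174 normalized counts of Igkc, 397 of Igha and 122 of Jchain, and saline mouse 6 had 82.4, 193 and 47.3. The other 8 saline mice had at most 26.4, 59.6 and 13.8 of these genes. At the other end, mice 2 and 3 of the 4-week group had Igkc at 17.1 and 23.5, near the saline median. Leaving out each of the 44 mice in turn kept every call on Igha, Igkc and Jchain at 4 weeks of bleomycin and in recovery. The log2 fold changes of Igkc then ranged from 1.98 to 2.69 at 4 weeks, from 3.08 to 3.78 at 6 weeks of recovery and from 2.25 to 2.95 at 10 weeks.

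Ighm, the constant region of IgM and of the receptor on most naive B cells, moved the other way during bleomycin. Its normalized counts were 773 to 1701 in saline mice, with a median of 1277. They were 478 to 1609 (median 759) at 2 weeks and 279.6 to 1135 (median 641) at 4 weeks. At 4 weeks all 10 mice lay below the saline median and 8 lay below every saline mouse. After 6 weeks of recovery the range was 740.2 to 1321 (median 1002), and after 10 weeks it was 622 to 1672 (median 1146). Ighm was 1.54-fold lower (log2 fold change -0.62 ± 0.21 SE, adjusted p = 0.0157) at 2 weeks and 1.97-fold lower (log2 fold change -0.98 ± 0.21 SE, adjusted p = 0.000176) at 4 weeks. The differences at 6 weeks (log2 fold change -0.33, 95% interval -0.81 to 0.15, adjusted p = 0.417) and 10 weeks of recovery (log2 fold change -0.21, 95% interval -0.65 to 0.23, adjusted p = 0.684) were not called. At 2 weeks the fold lay just past 1.5, and it fell short of it with edgeR (log2 -0.52), with DESeq2 (log2 -0.54) and without any of saline mice 2 and 9 and 2-week mice 5, 6, 7 and 8 (log2 -0.58 to -0.54).

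Ighg1, the constant region of IgG1, fell too under bleomycin. Saline mice had 11.9 to 63.9 normalized counts with a median of 42.02, and mice at 2 weeks had 4.69 to 29.8 with a median of 14.1. At 4 weeks the median was 9.78, and 9 of 10 mice had 0.978 to 12.8. The exception was mouse 1 of the 4-week group, with 75.99 normalized counts from 60 reads, above every saline mouse. In recovery the values were 35.98 to 67.4 (median 57.9) at 6 weeks and 26.6 to 56.6 (median 44.4) at 10 weeks. Ighg1 was 2.46-fold lower (log2 fold change -1.30 ± 0.36 SE, adjusted p = 0.00349) at 2 weeks and 3.56-fold lower (log2 fold change -1.83 ± 0.36 SE, adjusted p = 5.89e-05) at 4 weeks. It was not called at 6 weeks (log2 fold change 0.56, 95% interval -0.27 to 1.39, adjusted p = 0.421) or 10 weeks of recovery (log2 fold change 0.17, 95% interval -0.59 to 0.93, adjusted p = 0.882).

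Ighg2b, the constant region of IgG2b, had few reads in saline skin and was higher under bleomycin. In saline mice the reads were 0 in 6 of 10 mice and 7 in all, and the highest value was 4.83 normalized counts. At 2 weeks the lowest, median and highest values were 0.9899, 3.48 and 22.95, and at 4 weeks 1.27, 10.4 and 90.4. Every mouse of both bleomycin groups had at least 1 read and lay above the saline median of 0, and 3 and 7 of 10 lay above every saline mouse. After 6 weeks of recovery the median was 2.903 and the highest value 4.11, and after 10 weeks they were 1.76 and 13.6. Ighg2b was 3.43-fold higher (log2 fold change 1.78 ± 0.56 SE, adjusted p = 0.00999) at 2 weeks and 9.398-fold higher (log2 fold change 3.23 ± 0.56 SE, adjusted p = 8.37e-06) at 4 weeks. Because saline counts were so low, the size of the fold depended on the scale: the log2 fold change at 4 weeks was 4.88 with edgeR and 5.01 with DESeq2. At 2 weeks a pseudocount of 10 lowered it to 0.49 and removed the call (adjusted p = 0.159, limma). It was not called at 6 weeks (log2 fold change 0.92, 95% interval -0.37 to 2.21, adjusted p = 0.389) or 10 weeks of recovery (log2 fold change 0.85, 95% interval -0.34 to 2.03, adjusted p = 0.482).

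Ighg2c and Ighg3, the constant regions of IgG2c and IgG3, were too low to test. Ighg2c had 7 reads in saline mice, and 30 and 64 in the mice given bleomycin for 2 and 4 weeks. It had 13 reads at the earlier recovery time and 9 at the later. Its highest values were 2.38, 13.8, 22.9, 7.298 and 2.61 normalized counts in the same order, and the group medians lay between 0.571 and 2.49. At 2 and 4 weeks, 3 and 5 of 10 mice were above every saline mouse. Ighg3 had 4 reads at 2 weeks and 2 reads at 4 weeks, each in 2 mice, and 0 reads in saline and recovery mice. With 3 reads as the floor of detection in a mouse, Ighg3 was not detectable at this depth, which is not the same as absent.

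Cd79a and Mzb1 were low in every group. Cd79a had lowest 0, median 2.60, highest 4.58 normalized counts in saline mice, lowest 1.03, median 5.11, highest 13.01 at 2 weeks and lowest 1.55, median 3.35, highest 19.6 at 4 weeks. In recovery it had lowest 1.03, median 3.36, highest 8.66 at 6 weeks and lowest 2.79, median 5.27, highest 8.51 at 10 weeks. At 2 weeks 6 of 10 mice lay above every saline mouse and Cd79a was called, 1.89-fold higher (log2 fold change 0.92 ± 0.36 SE, adjusted p = 0.0405). That call rested on 21 and 48 reads in all, and it was lost with edgeR (log2 1.10, adjusted p = 0.0650), with DESeq2 (log2 1.13, adjusted p = 0.0635) and when any of 9 single mice was left out (adjusted p = 0.0538 to 0.0997). Cd79a was not called at 4 weeks (log2 fold change 0.73, 95% interval 0.01 to 1.45, adjusted p = 0.105), 6 weeks of recovery (log2 fold change 0.57, 95% interval -0.26 to 1.40, adjusted p = 0.406) or 10 weeks of recovery (log2 fold change 0.98, 95% interval 0.22 to 1.74, adjusted p = 0.118).

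Mzb1, which is overlapped by an annotated read-through transcript with its neighbour Spata24 on the same strand, had lowest 1.19, median 2.43, highest 9.48 normalized counts in saline mice, lowest 1.09, median 7.01, highest 11.7 at 2 weeks and lowest 0, median 4.099, highest 7.86 at 4 weeks. It had lowest 1.03, median 5.602, highest 9.88 at 6 weeks and lowest 1.77, median 6.04, highest 7.12 at 10 weeks of recovery. No call was made at 2 weeks with limma (log2 fold change 0.82, 95% interval 0.11 to 1.52, adjusted p = 0.0637), whereas edgeR (log2 1.00, adjusted p = 0.0427) and DESeq2 (log2 1.01, adjusted p = 0.0427) called it higher. The interval for 6 weeks of recovery ran from -0.22 to 1.41 (log2, adjusted p = 0.373) and that for 10 weeks from -0.21 to 1.29 (adjusted p = 0.477). At 4 weeks the estimate was 0.20 (adjusted p = 0.686). These intervals leave the behaviour of Mzb1 in recovery undetermined at this depth.

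The remaining comparisons asked what changed between 2 and 4 weeks of bleomycin, after treatment was stopped, and between the recovery times. From 2 to 4 weeks, Jchain alone was called of the 8 tested genes, 3.83-fold higher (log2 fold change 1.94 ± 0.51 SE, adjusted p = 0.0186), while 1.49% of all genes were called higher and 0.863% lower. At 4 weeks 9 of 10 mice exceeded the 2-week median of Jchain and 5 exceeded every 2-week mouse. Igha (log2 fold change 1.44, 95% interval 0.48 to 2.41, adjusted p = 0.0632), Igkc (log2 fold change 1.44, 95% interval 0.32 to 2.57, adjusted p = 0.118) and Ighg2b (log2 fold change 1.45, 95% interval 0.33 to 2.57, adjusted p = 0.112) missed the threshold. Igha was called by edgeR (log2 1.61, adjusted p = 0.0411) and DESeq2 (log2 1.60, adjusted p = 0.0233), and so was Ighg2b (log2 2.13, adjusted p = 0.0199, and log2 2.15, adjusted p = 0.0261). The other 4 genes had estimates of -0.36 for Ighm, -0.54 for Ighg1, -0.18 for Cd79a and -0.61 for Mzb1, with adjusted p of 0.327, 0.411, 0.823 and 0.321.

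Once bleomycin was stopped, from its last week to 6 weeks later, Ighm and Ighg1 went up and Ighg2b went down, while Igha, Igkc and Jchain showed no fall. These were 3 called of 8, 2 higher and 1 lower, against 4.8% of all genes called higher and 7.14% lower. The gene called lower, Ighg2b, had passed the filter only through the bleomycin groups, which favoured that call. Ighg1 was 5.24-fold higher (log2 fold change 2.39 ± 0.41 SE, adjusted p = 1.95e-05), and 9 of 10 mice at 4 weeks lay below every recovered mouse. Ighg2b was 4.96-fold lower (log2 fold change -2.31 ± 0.64 SE, adjusted p = 0.00612), with 7 of 10 mice at 4 weeks above every recovered mouse. Ighm was 1.57-fold higher (log2 fold change 0.65 ± 0.24 SE, adjusted p = 0.0383), a call that was lost with edgeR (log2 0.57, adjusted p = 0.0659), with the replicate number as a block (adjusted p = 0.0747) and without any of 7 single mice. The estimates for Igha (log2 fold change 1.02, 95% interval -0.10 to 2.13, adjusted p = 0.1803), Igkc (log2 fold change 1.09, 95% interval -0.21 to 2.39, adjusted p = 0.221) and Jchain (log2 fold change 1.25, 95% interval 0.06 to 2.45, adjusted p = 0.117) were above 0 and did not pass the test. Cd79a and Mzb1 were at -0.16 (adjusted p = 0.822) and 0.39 (adjusted p = 0.516).

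Between 10 and 6 weeks of recovery, 0 of the 8 genes were called by limma, edgeR or DESeq2, and 0 had an unadjusted p under 0.05 with limma, the lowest being 0.133. Of all genes, 0.0176% were called higher and 0.0704% lower. The medians of Igha, Igkc and Jchain were lower at 10 weeks, and 7 of 8 mice lay below the 6-week median of each. The estimates were log2 fold change -0.88, 95% interval -2.05 to 0.28, adjusted p = 0.533 for Igha, log2 fold change -0.83, 95% interval -2.19 to 0.53, adjusted p = 0.637 for Igkc and log2 fold change -0.77, 95% interval -2.02 to 0.48, adjusted p = 0.634 for Jchain. The intervals lie on both sides of 0, so a partial decline by 10 weeks was not detectable with 6 and 8 mice. Ighm (0.12), Ighg1 (-0.39), Ighg2b (-0.07), Cd79a (0.41) and Mzb1 (-0.06) had adjusted p between 0.731 and 0.976.

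Set against each other per kilobase of exon, the heavy chain genes changed their proportions. Ighm made up a median of 95.7% of the summed heavy chain level in saline mice, 90.9% at 2 weeks, 76.1% at 4 weeks, 74.2% at 6 weeks and 85.4% at 10 weeks of recovery. Igha made up 2.16%, 6.22%, 20.2%, 22.7% and 11.7%. Thus Ighm remained the most abundant heavy chain constant RNA in every group, and in the mouse with the least it was still 55.6% of the total. Among the IgA and IgG constant genes alone, the Ighg1 share was 48.3% in saline mice, 13.99% at 2 weeks, 2.75% at 4 weeks, and 10.97% and 16.8% in recovery. The Igha share was 51.5%, 75.3%, 84.8%, 88.4% and 82.5%. In saline mice it ranged from 21.7% to 92.8%, and at 4 weeks from 65.3% to 94.04%. Ighg2b reached 14.9% of the IgA and IgG level in 1 mouse at 4 weeks, with a group median of 4.996%, and its medians in the recovery groups were 0.397% and 0.6605%. These shares describe constant gene RNA and were not tested. Whether the reads came from cells that make IgM, or from switched cells, was not tested either.

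**Figure D3:**
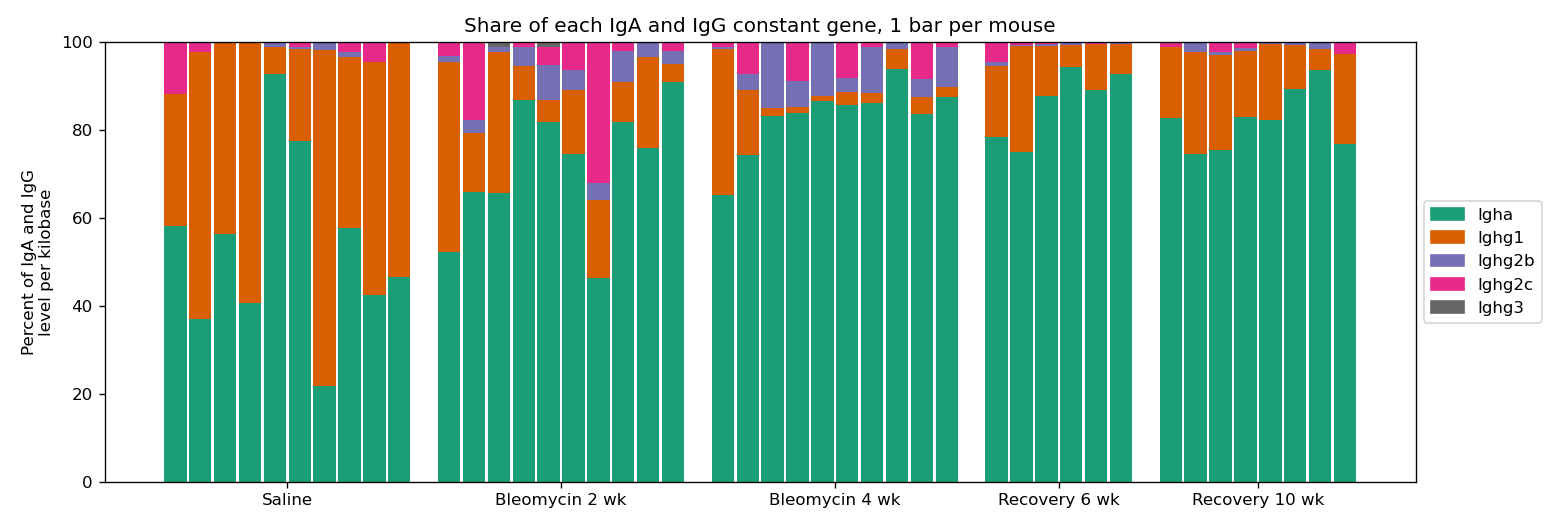
Each stacked bar is 1 mouse and shows the percent of the summed IgA and IgG constant gene level per kilobase that each of 5 genes made up, in 5 groups. The Ighg1 part is widest in saline mice, with a median of 48.3%, and the Igha part is at least 74.6% in all recovered mice.

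The kappa light chain gene kept pace with Igha and not with Ighm. Per kilobase, the level of Igkc divided by that of Igha had medians of 1.99, 1.67, 2.32, 2.27 and 2.15 from saline to 10 weeks of recovery. The level of Ighm divided by that of Igkc had medians of 23.4, 6.78, 1.58, 1.49 and 2.78. In 1 saline mouse, Ighm was 279 times the Igkc level, since that mouse had 1 read of Igkc. The level of Ighm divided by that of Cd79a, a gene with few reads, had medians of 278, 136, 121, 276 and 181 in mice with a Cd79a read. Igkc made up 83.9%, 77.2%, 82.5%, 89.2% and 94.4% of the kappa and lambda constant level in the same order of groups.

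The mice of a group differed from each other in these genes far more than in most genes. The pooled SD within groups, on log2(normalized count + 1), was 1.31 for Igkc, 1.28 for Ighg2b, 1.20 for Jchain and 1.12 for Igha, against a median of 0.27 over all genes tested. These values exceeded those of 98.3%, 98.2%, 97.9% and 97.5% of genes. Ighg1 (0.83), Cd79a (0.80) and Mzb1 (0.79) varied less, and Ighm, at 0.48, exceeded 76.5% of genes. The highest mouse had 152 times the Igkc of the lowest among saline mice (18.2 times without saline mouse 4, which had 1 read of Igkc), 19.2 times at 2 weeks, 17.6 times at 4 weeks, and 4.36 and 8.75 times in recovery. For Ighm the same ratios were 2.202, 3.36, 4.06, 1.79 and 2.69. Low genes have a larger counting error, which is part of the spread of Ighg2b, Cd79a and Mzb1. It is also part of the spread of Jchain and Igkc in saline mice, where their median reads were 5.5 and 14.

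Mice that were high in Igkc were also high in Jchain and Igha. After group means were taken off, over 44 mice, Igkc correlated with Jchain (Pearson r = 0.9099, Spearman rho = 0.889) and with Igha (r = 0.897, rho = 0.894), each with a permutation p of 1e-05, the smallest that 100000 permutations within groups could give. Adjusted over the 7 relations with Igkc that were computed, these p-values were 2.33e-05 for r and 3.50e-05 for rho. Within the groups, r ranged from 0.826 to 0.9904 for Jchain and from 0.7802 to 0.969 for Igha. At 6 weeks of recovery the 6 mice had the same order for Igkc and Jchain.

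Ighg2b followed Igkc less closely (r = 0.651, rho = 0.639, permutation p = 1e-05 and 4.00e-05, adjusted 2.33e-05 and 9.33e-05). Cd79a (r = 0.496, rho = 0.451, permutation p = 0.00197 and 0.0043, adjusted 0.00345 and 0.00685) and Ighm (r = 0.426, rho = 0.439, permutation p = 0.00503 and 0.00489, adjusted 0.00704 and 0.00685) had weaker relations, and that of Ighm ranged from -0.366 at 6 weeks of recovery to 0.708 at 4 weeks of bleomycin. Mzb1 (r = 0.309, rho = 0.296, permutation p = 0.049 and 0.0614, adjusted 0.0572 and 0.0716) and Ighg1 (r = 0.127, rho = 0.119, permutation p = 0.474 and 0.468, adjusted the same) did not pass after adjustment. When the 2 mice with Igkc farthest from the mean of their own group were left out, r was 0.909 for Jchain, 0.897 for Igha, 0.653 for Ighg2b, 0.412 for Cd79a, 0.476 for Ighm, 0.324 for Mzb1 and 0.177 for Ighg1. The genes come from the same library of each mouse, and the part of depth or of the piece of skin sampled was not tested.

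**Figure D4:**
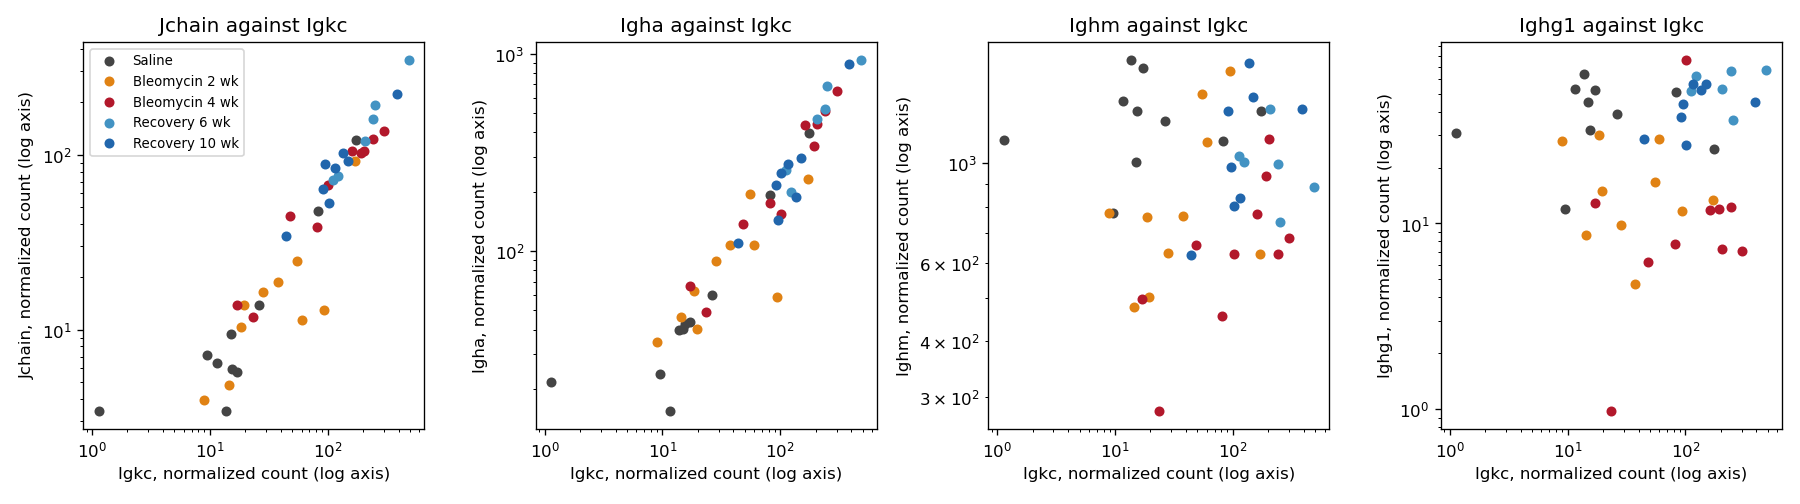
Normalized counts of Jchain, Igha, Ighm and Ighg1 (y axes) are plotted against those of Igkc (x axes), all on log axes, with a point for each of 44 mice coloured by group. Jchain and Igha rise with Igkc in all groups (r = 0.9099 and 0.897 after group means were taken off), and Ighg1 does not (r = 0.127).

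Of 17036 other genes tested, the 10 with the highest r with Igkc over the 44 mice, after group means were taken off, were Jchain (0.9099), Igha (0.897), Slc15a3 (0.692), Itgax (0.677), Cnn2 (0.671), Adgrg5 (0.665), Igkv10-96 (0.663), Rgs19 (0.655), Cd2 (0.654) and Kcnn4 (0.651). By name, 2 of these are immunoglobulin genes, Igha and the kappa variable segment Igkv10-96. Itgax codes for the integrin CD11c of dendritic cells and macrophages, and Cd2 for an adhesion molecule of T cells and other lymphocytes. Igkv10-96 shares 32.6% of its 50-base windows with other genes. For Ighm, a list looked at after its values were seen, the 10 were led by 1600014C10Rik (0.837), Mpp1 (0.828) and Pip4k2a (0.816), and they included the leukocyte gene Lcp1 (0.790) and the major histocompatibility class II genes H2-DMb1 (0.807) and H2-Aa (0.789). Of these 10, 0 were immunoglobulin genes. For Ighg1, likewise looked at after its values were seen, the 10 were led by the non-coding gene Gm32200 (0.652), 2010003K11Rik (0.554) and Akr1c18 (0.541). Among them too, 0 were immunoglobulin genes. These are descriptions over 44 mice, picked as the highest of all genes tested, and no p is given.

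Variable segments, which code for the part of an antibody that binds its target, had higher sums from 4 weeks of bleomycin on, a difference that was not tested. The table held 218 of them, of which 115 were heavy chain, 100 kappa and 3 lambda segments, and 168 had a read in some mouse. Their summed normalized counts were 3.42 to 188 (median 19.7) in saline mice, 6.72 to 184 (median 28.6) at 2 weeks and 22.4 to 422 (median 186) at 4 weeks. In recovery they were 116 to 491 (median 254) and 56.1 to 402 (median 122). The saline mice with the highest sums were again mice 5 and 6. The number of segments with at least 1 read had medians of 7.5, 13.5, 44, 50.5 and 40.5 in the 5 groups, and it depends on how many reads fell on the segments. In the 26 mice with at least 50 such reads, the leading segment took at most 37.3% of the heavy chain, kappa and lambda reads together. Since an antibody has both a heavy and a light chain, this pooled share cannot show how far 1 segment led within a chain. In mouse 6 at 4 weeks of bleomycin, Igkv1-110 had 120 of 205 kappa reads. Over the 26 mice 15 different segments led, Igkv1-110 in 6 mice and Iglv1 in 3. In the 8, 6 and 8 such mice at 4 weeks of bleomycin and at 6 and 10 weeks of recovery, the leading share had medians of 15.4%, 11.1% and 17.3%. Igkv1-110 shares 50.9% of its 50-base windows with other genes, among them Igkv1-117, and Iglv1 shares 22.2%, with Iglv2. How the reads were assigned among near-identical segments is not given in the sources used here, so single segments are uncertain, Igkv1-110 above all.

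**Figure D5:**
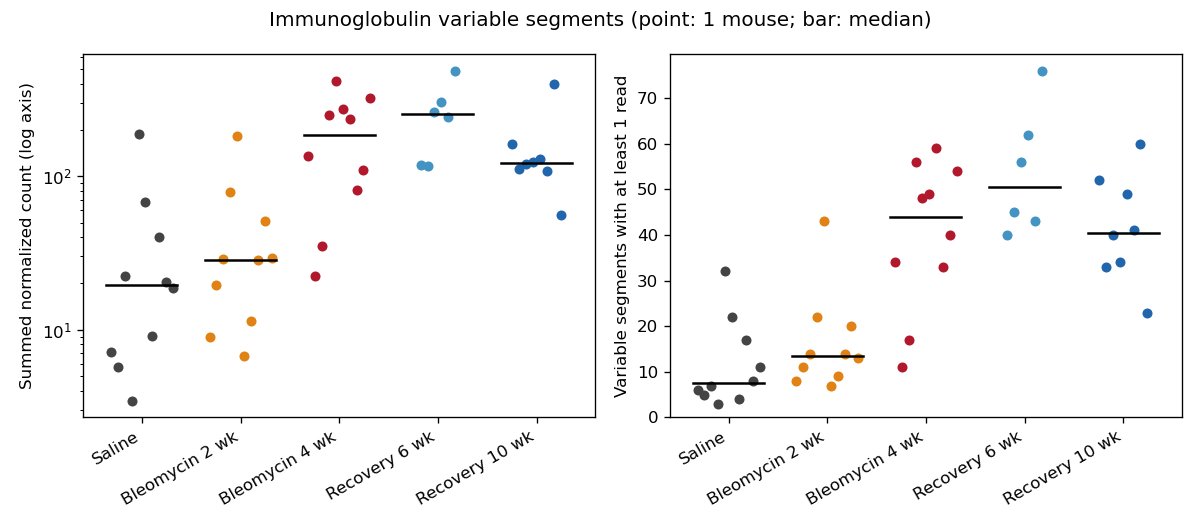
The left panel plots the summed normalized count of 218 immunoglobulin variable segments (log axis) and the right panel the number of segments with at least 1 read, with a point for each of 44 mice in 5 groups and a bar at the median. Median sums run from 19.7 in saline mice to 254 at 6 weeks of recovery.

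Of the 6 segments that passed the filter, 1, 3, 2 and 1 were called higher in the 4 comparisons with saline in the order of the groups, and 0 were called lower, with limma. At 6 weeks of recovery DESeq2 called 1 in place of 2, and at 10 weeks edgeR called 3 in place of 1. Their median log2 fold changes were 0.01, 1.45, 1.98 and 1.63, and those over all genes tested were 0.0025, -0.00065, -0.0023 and 0.00069. The filter used the mean over all mice, so a segment low in saline mice passed it only through groups where it was high. Higher calls were thus favoured by the filter, and these counts and medians are a description only. The lambda segment Iglv1 was 2.44-, 8.32-, 14.2- and 4.58-fold higher, with medians of 0 normalized counts in saline mice and 1.68, 10.7, 19.9 and 6.37 in the other groups. Igkv1-110 was 5.44-fold higher at 4 weeks and 4.805-fold higher at 6 weeks of recovery, and Igkv10-96 was 3.26-fold higher at 4 weeks. From 2 to 4 weeks of bleomycin, 2 were called higher (Igkv1-110, 5.71-fold higher, and Iglv1, 3.42-fold higher) with a median of 1.10. In the other 2 comparisons 0 were called by limma, with medians of 0.56 and -0.58.

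Counts of called genes in the lists that follow are those of limma unless another tool is named. Of all genes tested, 9.3% were called higher and 7.43% lower at 2 weeks, and 10.5% and 7.37% at 4 weeks. The shares were 3.33% and 1.71% at 6 weeks and 2.05% and 0.998% at 10 weeks of recovery. From 2 to 4 weeks they were 1.49% and 0.863%, and from 4 weeks to recovery 4.8% and 7.14%. The list counts stand beside these shares and were not tested against them. A low gene can pass the filter through the groups where it is high, which favours calls there. Of 10 other immunoglobulin constant and surrogate light chain genes, 4 were tested, and 2 (Iglc2 and Iglc3) were called higher and 1 (Ighd) lower at 4 weeks, 2 (again Iglc2 and Iglc3) higher at 6 weeks of recovery, and 0 in the other 5 comparisons with limma. The list medians against saline were 0.70, 0.97, 1.43 and 0.37. Iglc3, a lambda light chain constant gene, had medians of 1.04, 2.06, 10.2, 15.7 and 0.913 normalized counts in the 5 groups and was 5.997-fold higher at 4 weeks and 6.23-fold higher at 6 weeks of recovery. Iglc2, also of the lambda chain, was 2.71- and 4.29-fold higher, and Ighd, the constant region of IgD on naive B cells, was 1.58-fold lower at 4 weeks. Iglc2 and Iglc3 share 7.65% and 10.7% of their 50-base windows with other genes.

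B cell genes moved in both directions under bleomycin. Of 15 listed genes, 11 were tested: 4 were called higher and 3 lower at 2 weeks, 5 higher and 4 lower at 4 weeks, 1 higher at 6 weeks and 0 at 10 weeks of recovery, with list medians of 0.46, 0.28, -0.15 and -0.14. From 4 weeks to recovery 3 were called higher and 4 lower (median -0.52), and 0 were called from 2 to 4 weeks (median -0.08) or between recovery times (median 0.01), all with limma. Cd22, an inhibitory receptor of B cells, had medians of 3.501, 50.2, 64.1, 17.3 and 6.404 normalized counts in the 5 groups, and was 13.2-fold higher at 2 weeks, 16.7-fold at 4 weeks and 3.83-fold at 6 weeks of recovery. Ms4a1, which codes for CD20, was too low to test, with medians from 0 to 2.50. Fcer2a, the low-affinity IgE receptor of B cells, was 3.14-fold lower at 2 weeks and 2.801-fold lower at 4 weeks. Cd79a, also of B cells, had group medians of only 2.60 to 5.27, and which cells gave the Cd22 reads was not tested.

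Beside these values, the 10 markers of lymph node tissue summed to 59.6 to 180.2 normalized counts in saline mice, 187 to 1027 at 2 weeks, 149.5 to 434 at 4 weeks, 39.5 to 114 at 6 weeks and 47.8 to 86.2 at 10 weeks of recovery. Of the 5 markers tested, limma called 3 higher and 1 lower in each bleomycin group, and 1 lower in each recovery group. At 4 weeks edgeR and DESeq2 called 3 in place of 4, at 6 weeks of recovery they called 0, and at 10 weeks edgeR called 0 and DESeq2 called 1. The defining node genes Glycam1 and Madcam1 were at or near 0, with highest values of 6.82 and 7.15, and Glycam1 had 0 reads in saline mice and at 10 weeks of recovery. In both recovery groups, where Igha, Igkc and Jchain were higher than in saline mice, the node sums had medians of 57.3 and 58.3, against 80.8 in saline mice.

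Plasma cell and secretory genes, several of which skin cells also use, were called lower more often than higher, in small counts. Of all genes, more were called higher than lower in each comparison with saline. All 12 were tested: 2 were called higher and 4 lower at 2 weeks, 1 higher and 3 lower at 4 weeks, 2 lower at 6 weeks and 1 lower at 10 weeks of recovery, with list medians of -0.37, -0.39, -0.05 and -0.30. Between the treated groups, 1 was called lower from 2 to 4 weeks, 1 higher and 2 lower from 4 weeks to recovery, and 0 between recovery times with limma. Sdc1, Xbp1 and Prdm1, known from plasma cells, had saline medians of 6597, 2188 and 589 normalized counts, far above that of Igkc. Tnfrsf17, the receptor BCMA of plasma cells, had medians of 10.6, 4.195, 3.73, 4.46 and 6.66 and was 2.21-, 2.81- and 2.85-fold lower at 2 and 4 weeks and at 6 weeks of recovery. Tnfrsf13b, the receptor TACI of B cells, had medians of 79.5, 200.1, 139, 73.3 and 57.3 and was 2.85- and 1.85-fold higher at 2 and 4 weeks. Which cells gave the Tnfrsf13b reads was not tested. Of the plasma cell markers Jchain, Mzb1, Igkc, Tnfrsf17 and Derl3, limma called only Igkc and Jchain higher in any comparison, whereas edgeR and DESeq2 also called Mzb1 at 2 weeks and Derl3 from 4 weeks to recovery.

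Factors that keep plasma cells alive or draw B cells into tissue also moved in both directions. Of 13 listed genes, 12 were tested: 3 were called higher and 1 lower at 2 weeks and again at 4 weeks, 3 higher and 2 lower at 6 weeks and 1 higher and 1 lower at 10 weeks of recovery, with list medians of 0.12, 0.19, 0.12 and -0.17. At 6 weeks of recovery edgeR and DESeq2 called 3 in place of 5. Tnfsf13b, which codes for the survival factor BAFF, had medians of 5.72, 7.95, 7.81, 13.7 and 11.01 normalized counts and was 2.18-fold higher at 6 weeks (adjusted p = 0.00206) and 1.67-fold higher at 10 weeks of recovery (adjusted p = 0.0374). Cxcl13, the chemokine that attracts B cells to follicles, had medians of 29.1, 40.2, 41.8, 6.403 and 13.1 and was 3.02-fold lower than in saline mice at 6 weeks of recovery. Il6, a cytokine that supports plasma cells among other roles, was 4.82- and 3.96-fold higher at 2 and 4 weeks, and the lymphoid homing receptor Ccr7 was 2.92- and 3.92-fold higher. From 4 weeks to recovery 3 were called higher and 4 lower, with Ccr7 5.39-fold lower, Cxcl13 4.04-fold lower and Il6 2.86-fold lower.

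Of 11 genes of class switching and T cell help, 7 were tested: 2 were called higher and 1 lower at 2 weeks, 2 higher at 4 weeks, 1 lower at 6 weeks and 1 lower at 10 weeks of recovery, and 2 lower from 4 weeks to recovery. Cd40, the receptor through which T cells help B cells, was 2.81- and 2.04-fold higher at 2 and 4 weeks. Of 10 genes for Fc receptors and antibody transport, which bind antibody or carry it, 9 were tested, and 6 were called higher and 0 lower at 2 weeks and again at 4 weeks, with list medians of 1.04 and 0.74. In each recovery group 1 was called higher, and from 4 weeks to recovery 6 were called lower (median -0.78). Fcgr4 and Fcgr1, activating receptors for IgG on myeloid cells, were 9.68- and 6.43-fold higher at 4 weeks. Fcer1a, the IgE-binding chain of the high-affinity receptor of mast cells and basophils, had medians of 7.17, 51.6, 117, 25.2 and 21.3 normalized counts, and it was 8.11-, 15.7-, 4.09- and 2.93-fold higher in the 4 groups.

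Markers of other cells were measured in the same libraries, and their part in the results above was not tested. Of 5 macrophage markers, 3 were called higher at 2 and at 4 weeks, 0 in the recovery groups and 3 lower from 4 weeks to recovery, and their summed normalized counts were 4007 to 10521 in saline mice, 6678 to 24707 at 2 weeks, 7504 to 18279 at 4 weeks, 6208 to 7913 and 4766 to 7362 in recovery. Of 8 T cell markers, 4 were called higher at 2 weeks, 1 higher at 4 weeks, 1 lower at 10 weeks of recovery and 2 lower from 2 to 4 weeks, and their sums were 435 to 1175, 716 to 1886, 656 to 1088, 612 to 846 and 432 to 728 in the 5 groups. Of 4 fibroblast markers, limma called 2 lower at 2 weeks, 1 lower in each of the other 3 comparisons with saline and 1 higher from 2 to 4 weeks. Of 5 red blood cell markers, limma called 2 higher at 2 weeks (edgeR and DESeq2 called 4 each) and 3 lower from 2 to 4 weeks (edgeR called 4 and DESeq2 5), the comparison in which Jchain was called higher. Of 4 fat cell markers, limma called 1 lower at 2 weeks, 2 lower at 4 weeks and 2 higher from 4 weeks to recovery, and skeletal muscle and keratinocyte markers had 0 calls with limma in all 7 comparisons. Where 0 genes of a list were called with limma, in 52 of 112 pairs of a list and a comparison, 44 of 297 gene tests had an unadjusted p under 0.05, and edgeR and DESeq2 called 7 each, 3 of them Fc receptor genes from 2 to 4 weeks of bleomycin.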

How the data were processed

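RNA from skin biopsies of 44 mice in 5 groups was sequenced with 50-base paired-end reads. Per the labels and the paper's methods, the authors aligned reads to mm10 with STAR 2.4.0, counted them per gene and divided each mouse's counts by a DESeq2 1.12.3 size factor, and the deposited signal is these normalized counts. The counting tool, strand setting and annotation are not given in the sources used here. Whole reads were recovered from the step of each mouse (100.0% of values whole). The tolerance was 0.001 for low counts and grew with the count for high ones, which were therefore checked only loosely.

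Groups follow the sample labels, which give the mice as separate samples. Symbols matched 42929 of 43411 gene IDs (98.9%). limma 3.58.1 with a trend, in R 4.3.3, was fitted over all 5 groups to log2(normalized count + 1) for the 17037 genes with a mean above 3, with Benjamini-Hochberg adjustment over them. edgeR 4.0.16 (quasi-likelihood) and DESeq2 1.42.0 were run on recovered reads. Other alternatives were pseudocounts of 0.1 and 10, no filter or a stricter one, trimmed-mean rescaling, fits of 2 groups only, a replicate block, array weights and leaving out mice. The tests were tried on simulated data first. The members, lists and tests were chosen with earlier results of these data known. Named genes were all 10 members, up to 3 called genes with the largest fold per list and comparison, and a few others whatever their values, among them Ms4a1, Tnfrsf17, Cxcl13 and Tnfsf13b. Some genes of this rule are not reported here.

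Correlations used permutations within groups. Exon lengths, positions and sequences come from GENCODE vM21 on GRCm38. Per-kilobase levels divide by the union of exons. Figures were drawn with matplotlib 3.10.9, and the ranks for Spearman rho came from scipy 1.17.1. Correlations between genes and tables were computed with pandas 2.3.3 and numpy 2.4.6 in Python 3.11.15. The floor of 3 reads and all counts cover counting error only. Histology was not analysed here.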

Additional observations from a re-analysis of the deposited data

Results flagged for a closer look

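In 6 of the 47 combinations of gene and group that could be examined, 1 mouse lay far from the rest of its group by Dixon's test, which chance alone does in about 1 in 20. At 4 weeks of bleomycin, mouse 1 had 76.0 normalized counts of Ighg1 (60 reads), the highest of its group. At 10 weeks of recovery, mouse 7 had 891 normalized counts of Igha (1047 reads), the highest of its group. The other 4 rest on 10 reads or fewer: Ighg2b at 4.83 in saline mouse 5 (4 reads), Ighg2c at 7.30 in mouse 1 at 6 weeks of recovery (10 reads), Ighg3 at 2.87 in mouse 5 at 2 weeks of bleomycin (3 reads) and Mzb1 at 0, the lowest of its group, in mouse 3 at 4 weeks of bleomycin.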

How the results depend on the processing

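Of 602 values recomputed under the alternatives, 569 kept their direction and their side of the threshold, 15 lost a call, 11 gained one and 7 changed sign. Leaving out each mouse in turn left 2418 of 2464 values in place, with 22 calls lost, 10 gained and 14 changes of sign. Of the 20 called differences, 16 kept the call in every setting, and the exceptions were Ighm, Ighg2b and Cd79a at 2 weeks of bleomycin and Ighm from 4 weeks to recovery. The number of genes called at 2 weeks was 4, with 2 under a pseudocount of 10, 3 with edgeR and 3 with DESeq2. Over all alternatives other than leaving out 1 mouse, the number ranged from 2 to 4. When mice were left out in turn it ranged from 2 to 5, with 2 when 2-week mouse 5 was left out and 5 when 4-week mouse 3 was. From 2 to 4 weeks it was 1, and 2 with a pseudocount of 10, 4 with array weights, 3 with edgeR and 3 with DESeq2, and from 1 to 2 when mice were left out in turn.

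The replicate numbers did not pair the mice, whose same-number deviations had a median correlation of -0.00221 over 78 pairs, with 18 of them over 0.1. With the number as a replicate block, 2 genes were called from 2 to 4 weeks and 2 in place of 3 from 4 weeks to recovery, and no other count of genes described here changed.

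The values that changed sign had adjusted p of 0.606 or more at first. Jchain at 2 weeks was -0.052 with edgeR and -0.098 with DESeq2. Ighg1 at 10 weeks of recovery was -0.0028 without saline mouse 1 and 2-week mouse 2, and -0.0028 to 0.26 when mice were left out in turn. Cd79a from 4 weeks to recovery was 0.024 with array weights, and -0.38 to 0.073 when mice were left out in turn. Ighg2b between recovery times was 0.034 with a pseudocount of 10, 0.40 with edgeR and 0.40 with DESeq2, and -0.42 to 0.13 when mice were left out in turn. Mzb1 between recovery times was -0.37 to 0.12 when mice were left out in turn. The cause of these changes was not tested. Of all genes, 15 were called between recovery times with limma, 21 with edgeR and 63 with DESeq2. The 4 calls named above as exceptions were lost in settings given in the report, and Ighm from 4 weeks to recovery also without a filter (adjusted p = 0.0613, limma), with array weights (log2 0.54) and with DESeq2 (log2 0.58). Cd79a at 2 weeks also lost its call with a pseudocount of 10, without a filter, with only the 2 groups compared and with array weights (adjusted p = 0.0636 to 0.0946, limma). A filter of 10 in at least 6 mice left Cd79a and Mzb1 untested. Rescaling by trimmed means moved the median of all genes by at most 0.017 (log2). Depth limits Ighg2b, Ighg2c, Ighg3, Cd79a and Mzb1, which had 424 reads or fewer over all mice.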
